A study of Mus musculus with 12 samples.

Results

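The serotonin receptor genes of the mouse hippocampus were read from poly(A) RNA libraries as the 10 genes named Htr1a, Htr1b, Htr1d, Htr2a, Htr2c, Htr3a, Htr4, Htr5a, Htr6 and Htr7, of 78298 genes listed. They were chosen by name, and each was found once in the table. The 12 libraries, sequenced with paired reads of 150 bases, came from male C57BL/6 mice aged 6 to 8 weeks when bought, kept for 7 days before the experiment and preselected for a sucrose preference above 50%. Control mice (4 libraries) had saline and no stress. Model mice (4 libraries) went through chronic unpredictable mild stress, a varying sequence of mild stressors used in rodents as a model of depression, over 28 days, and received saline. Treatment mice (4 libraries) went through the same stress and were given poricoic acid A, a triterpenoid from the fungus Poria cocos, at 20 mg/kg by gavage each day for 14 days from day 15. No group received the compound without stress. Nothing in the labels ties each library to an animal of its own, and p-values therefore reflect only the spread between these samples, which may be technical. All libraries are of batch 1 per the labels, and the names of Treatment replicates 2 and 3 (1631 and 1636) lie apart in number from the others.

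Serotonin reaches the hippocampus through axons of neurons whose cell bodies lie in the raphe nuclei of the brainstem, so the receptors are transcribed by hippocampal cells while the transmitter's own synthesis genes are mostly transcribed elsewhere. All members but Htr3a encode G protein-coupled receptors. The Htr1 and Htr5a products couple to inhibitory G proteins, the Htr2 products to Gq and phospholipase C, and the Htr4, Htr6 and Htr7 products to Gs and cyclic AMP, whereas Htr3a encodes a subunit of a cation channel. Htr1a is known for its strong expression in hippocampal pyramidal and granule cells, and Htr2c for its very high expression in the epithelium of the choroid plexus, which lies against the hippocampus in the ventricle.

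Levels of different genes were compared in the deposited FPKM, which is scaled by transcript length and by library. Htr2c and Htr1a stood above the other 8 receptors, and Htr1d was close to the limit of detection. Over the 12 libraries Htr2c had a mean of 11.3 ± 3.16 FPKM (SD, n = 12; range 7.22 to 16.7) and Htr1a of 8.60 ± 1.01 FPKM (7.16 to 10.4). Htr2c was the higher of the pair in 9 of 12 libraries, and their ranges overlapped. Htr1a was above Htr3a, the next in order, in all 12 libraries, without overlap of their ranges. A middle group followed whose neighbours overlapped throughout: Htr3a at 3.68 ± 0.73 FPKM, Htr7 at 3.39 ± 0.60, Htr4 at 3.27 ± 0.62, Htr5a at 2.53 ± 0.43, Htr2a at 2.43 ± 0.31, Htr6 at 2.41 ± 0.32 and Htr1b at 1.91 ± 0.45. Htr1d, at 0.158 ± 0.096 FPKM with a range of 0 to 0.358, lay below every value of Htr1b.

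**Figure D1:**
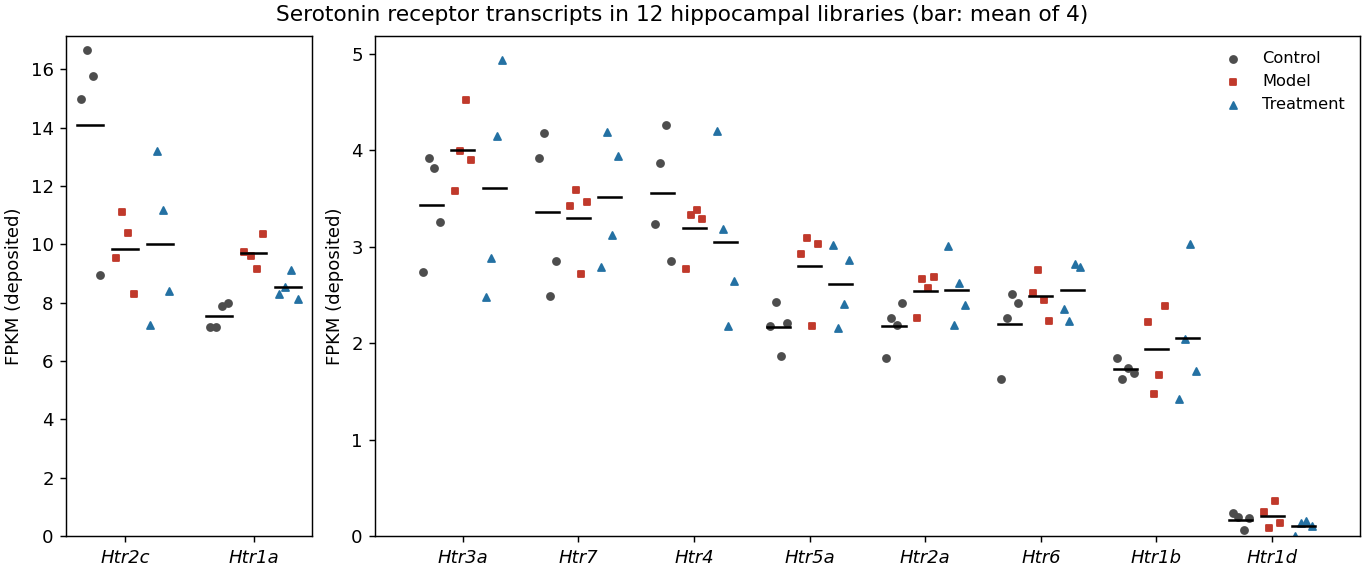
Deposited FPKM of the 10 receptors in each library, with circles for Control, squares for Model, triangles for Treatment and a bar at the mean of each group of 4; the left panel has its own scale, since Htr2c and Htr1a are the highest. In the Control group 3 of 4 libraries lie above 14 FPKM for Htr2c. For Htr1a the 3 groups do not overlap and Model is highest, but the gaps are narrow. Treatment replicate 3 (9.135 FPKM) lies just below Model replicate 3 (9.143), and Control replicate 4 (8.00) below Treatment replicate 4 (8.14).

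The summed level of the 10 receptors differed little between the groups, at 40.4 ± 4.22 FPKM in Control, 40.0 ± 1.14 in Model and 38.6 ± 2.85 in Treatment (SD, n = 4 each). Its make-up was less even. Htr2c made up 34.5% of the sum in Control, 24.5% in Model and 25.7% in Treatment, and Htr1a made up 18.9%, 24.3% and 22.2%. Without Htr2c the sum was 26.4 ± 1.32 FPKM in Control, 30.2 ± 1.08 in Model and 28.6 ± 1.16 in Treatment. Htr2c was highest and Htr1a next in all 3 group means, while Htr4 stood 3rd in Control and 5th in both stressed groups, and Htr5a 8th in Control and 6th in both others. These sums and orders are descriptions and carry no test. The lower place of Htr4 in Model is one of FPKM: in counts, described below, Model differed from Control by -0.03 ± 0.12 (log2 ± SE).

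Differences between groups were tested on the estimated counts with edgeR's quasi-likelihood test and Benjamini-Hochberg adjustment over all 18600 genes that passed a filter on low counts, with a threshold of 0.05 on the adjusted p. Of the receptors 9 passed the filter and Htr1d did not. Library totals ran from 17083260 to 27479083 counts. Values by library are given as CPM, in which the count is divided by the library size after scaling by TMM (trimmed mean of M values), and differences as log2 fold changes ± SE. In bulk RNA fewer cells of a type and less RNA per cell cannot be told apart.

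In Model against Control, 147 of 18600 genes passed (0.79%; 63 higher, 0.339%, and 84 lower, 0.452%), and 1 of the 9 tested receptors, Htr1a, was among them. Of the 9 receptors 7 had a positive difference and 2 a negative one, with a median of 0.23, beside a median of -0.01 and 47.3% positive over all genes tested. At an unadjusted p under 0.05 there were 4 receptors (Htr1a, Htr2a, Htr2c and Htr5a), where 15.6% of all genes tested were. In Treatment against Model, 350 genes passed (1.88%; 219 higher, 1.18%, and 131 lower, 0.704%) and 0 of the 9 receptors, with 2 (Htr1a and Htr4) at an unadjusted p under 0.05 beside 18.5% of all genes. DESeq2 also gave 0 receptors in that comparison. There 3 differences were positive and 6 negative, with a median of -0.02 beside 0.00 over all genes. In Treatment against Control, 19 genes passed (0.102%; 12 higher, 0.0645%, and 7 lower, 0.0376%), and 0 receptors by edgeR and by DESeq2, with 4 (Htr1a, Htr2c, Htr4 and Htr6) at an unadjusted p under 0.05 beside 13.9% of all genes. Here 7 differences were positive and 2 negative, with a median of 0.18 beside -0.01. The comparisons share groups, so their values are not independent of each other.

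**Figure D2:**
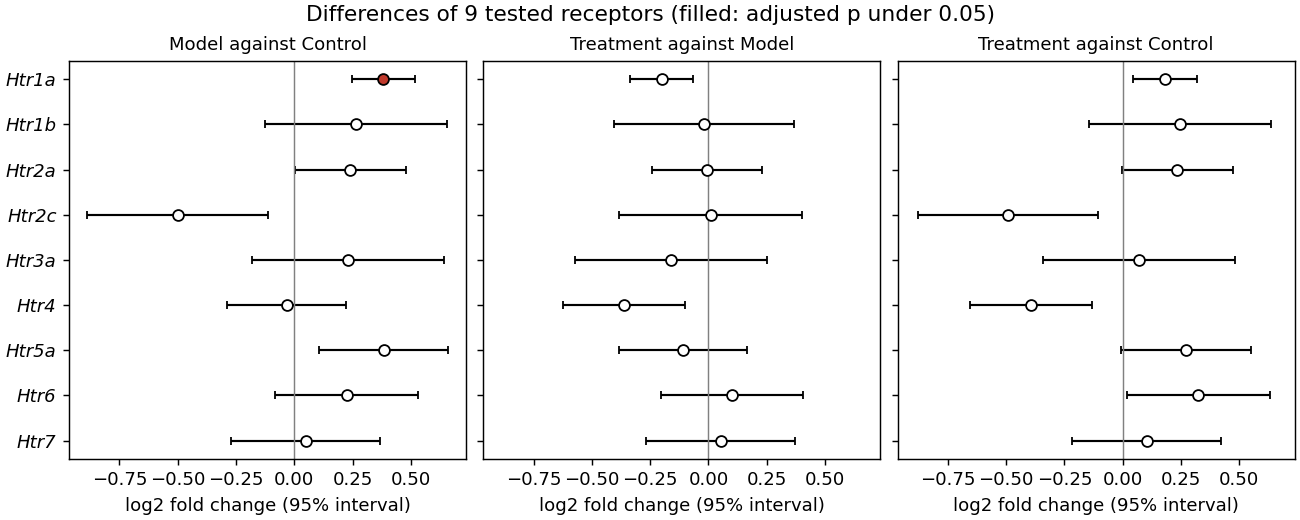
Log2 fold change of the 9 tested receptors in the 3 comparisons (points, with 95% intervals as bars; the vertical line is at 0, and a filled point marks an adjusted p under 0.05 in edgeR). Htr1a in Model against Control is the only filled point, and the Htr2c intervals lie below 0 in both comparisons with Control.

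Htr1a encodes the 5-HT1A receptor, which lowers cyclic AMP and opens inwardly rectifying potassium channels, and which acts as an autoreceptor in the raphe and as a postsynaptic receptor in the hippocampus. In the deposited table it lies at chr13:105580147-105584630 (GRCm39), where its listed transcript is a single exon of 4484 bases in the GENCODE vM21 models. The 250 bases before its start are shown because it was the receptor that passed a test. They were taken from RefSeq, GRCm38.p6, chr13:105443443-105443692, plus strand, 5′ to 3′, with a GC box, GGGCGG, in capitals.

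Htr1a: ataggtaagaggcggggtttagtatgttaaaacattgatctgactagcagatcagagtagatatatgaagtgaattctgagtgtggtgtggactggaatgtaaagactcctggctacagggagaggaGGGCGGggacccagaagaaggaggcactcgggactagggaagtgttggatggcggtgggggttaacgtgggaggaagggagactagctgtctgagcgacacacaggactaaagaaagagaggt

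The GC box lay 123 to 118 bases before the start, and 32.94% of 27025 windows of the same length, 1 per gene, held one on either strand. The window is 50.4% G and C, beside a median of 52.0% over all windows. Other motifs were searched on both strands and had no match in it: AGAACA, a half-site of the glucocorticoid receptor (in 16.17% of windows), GAANNTTC of the heat shock element (6.78%), the D-box TTANGTAA (2.11%) and the cyclic AMP response element TGACGTCA (1.62%).

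The Control libraries held 29.9, 30.1, 33.1 and 33.8 CPM of Htr1a, the Model libraries 41.2, 40.7, 39.2 and 44.1, and the Treatment libraries 35.0, 35.4, 38.3 and 35.1, in the order of their replicate numbers. Every Model library was above every Treatment library, and every Treatment library above every Control library. Among the 18600 genes tested, 7 (0.0376%) had this order without overlap, and 11 (0.0591%) had it or its mirror image. Htr1a rose by 0.38 ± 0.06 (log2 ± SE; adjusted p = 0.0183 in edgeR) in Model against Control, from 31.7 ± 2.03 to 41.3 ± 2.04 CPM (SD, n = 4 each), a 1.30-fold difference. It was the only receptor whose Model and Control libraries did not overlap, which 11.4% of all genes showed. The difference of Treatment from Model was -0.20 ± 0.06 (95% interval -0.34 to -0.07; adjusted p = 0.109), and that of Treatment from Control was 0.18 ± 0.06 (0.04 to 0.32; adjusted p = 0.222). Neither passed.

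The scatter of Htr1a within groups was small, with a biological coefficient of variation of 6.18% beside 8.42% expected at its level from the trend over all genes. The call of Model against Control was lost without Control replicate 1 (0.36, adjusted p = 0.0729; the lowest library in Htr1a), without Control replicate 2 (0.36, 0.0698), without Model replicate 4 (0.35, 0.0723) and in limma on log2(FPKM + 0.1) (0.36, 0.0893) or log2(FPKM + 1) (0.32, 0.0929). The direction was the same in all 23 alternatives, between 0.29 and 0.42. Control replicate 1 stood apart in markers of thalamus and habenula, which summed to 583 CPM there, to 236 to 274 CPM in the other Control libraries, to 230 to 371 in Model and to 254 to 340 in Treatment, and it also had the lowest sum of CA1 markers, 618 CPM.

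Markers of CA1 pyramidal cells moved with Htr1a. All 10 of 10 had a positive difference in Model against Control, with a median of 0.17 and 0 passing, and their summed level was 618 to 795 CPM in Control, 802 to 912 in Model and 733 to 927 in Treatment. None of the 10 was at 0 in any group. Other neuronal lists were also mostly positive in that comparison: 8 of 8 general neuron markers (median 0.10; 1, Neurod2, rose; summed level 9309 to 10376 CPM in Control, 10202 to 11364 in Model and 9755 to 10930 in Treatment) and 9 of 10 dentate granule cell markers (median 0.10; 1, Trpc6, rose). Less one-sided were the CA2 and CA3 list (6 positive, 4 negative), caudal ganglionic eminence interneurons (7 and 5) and other interneurons (6 and 2), with 0 passing in each. The mean log2 levels of the general neuron and granule cell lists had Pearson correlations of 0.72 and 0.29 with Htr1a over the 12 libraries. After group means were taken out these were 0.49 and -0.17. For the CA1 list, the mean log2 level had a Pearson correlation of 0.78 with Htr1a, and of 0.76 after group means were taken out. With the CA1 mean as a covariate, chosen after the data were seen, the difference of Htr1a was 0.29 with an adjusted p of 0.146. With the mean of the choroid plexus markers as a covariate it was 0.36 with an adjusted p of 0.181, in a fit where 3 genes in all passed. Both lists were themselves shifted between Control and Model, so neither fit separates marker level from group. In Treatment against Model 7 of the 10 CA1 markers were negative and 3 positive, with a median of -0.14 and 1 that fell.

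**Figure D3:**
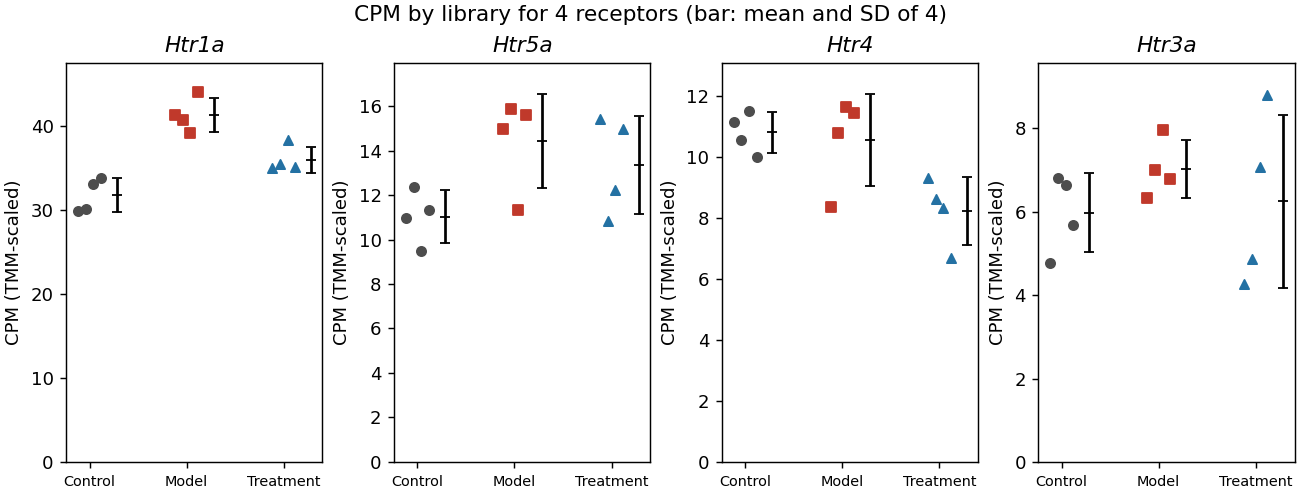
CPM of Htr1a, Htr5a, Htr4 and Htr3a in each library, with circles for Control, squares for Model and triangles for Treatment, in the order of their replicate numbers from left to right; the bar beside each group is its mean and SD (n = 4), and every axis starts at 0. The groups are separate for Htr1a, and the Treatment libraries of Htr4 lie below all Control libraries, while those of Htr3a spread from 4.26 to 8.79 CPM.

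Htr1b encodes the 5-HT1B receptor, found on axon terminals, where it restrains transmitter release. It held 8.16, 5.79, 7.74 and 7.52 CPM in Control, 9.96, 6.61, 7.55 and 10.7 in Model, and 6.36, 8.97, 11.4 and 7.80 in Treatment. The groups overlapped widely. Its difference was 0.27 ± 0.18 in Model against Control (95% interval -0.12 to 0.65; adjusted p = 0.532), -0.02 ± 0.18 in Treatment against Model (-0.41 to 0.37) and 0.25 ± 0.18 in Treatment against Control (-0.14 to 0.64). The gene (chr9:81510344-81515881) overlaps D430036J16Rik, its estimated counts were fractional in all 12 libraries, and whether the counting used strand is not given in the sources used here, so its values are uncertain.

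Htr1d encodes the related 5-HT1D receptor, another terminal receptor. Its counts were 11, 14, 2 and 10 in Control, 12, 4, 5 and 8 in Model, and 0, 7, 6 and 5 in Treatment. Counting error alone is wide at this depth: the exact 95% Poisson interval of the highest, 14 counts, is 7.65 to 23.5, and that of the 0 in Treatment replicate 1 reaches 3.69 counts. Differences between the groups were not detectable at this depth, and no fold change is given. Its FPKM does not follow its counts from library to library: Model replicate 3, with 5 counts, has the highest FPKM (0.358), above Model replicate 1 with 12 counts (0.250).

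Htr5a encodes the 5-HT5A receptor, which also couples to inhibitory G proteins. Its libraries held 11.0, 12.3, 9.49 and 11.3 CPM in Control, 15.0, 15.9, 11.3 and 15.6 in Model, and 15.4, 10.8, 12.2 and 14.9 in Treatment. Model replicates 1, 2 and 4 were above all Control libraries, and Model replicate 3 lay within them. The difference of Model from Control was 0.38 ± 0.13 (95% interval 0.11 to 0.66), as large as that of Htr1a, but with a wider spread and an adjusted p of 0.165. Treatment differed from Model by -0.11 ± 0.13 (-0.39 to 0.16; adjusted p = 0.714) and from Control by 0.27 ± 0.13 (-0.01 to 0.55; adjusted p = 0.371). Without a filter on low counts Htr5a passed in Model against Control (0.40, adjusted p = 0.0275). The difference itself hardly moved from the reported 0.38. As with Htr2c below, the call is therefore not read as a firmer difference. The 12 choroid plexus markers described with Htr2c were low where Htr5a was high (Pearson -0.79 over the 12 libraries, and -0.64 after group means were taken out). With their mean as a covariate the difference of Htr5a was 0.14 ± 0.15 in Model against Control. Their summed level was 1367 to 4074 CPM in Control and 1140 to 1597 in Model. Marker level and group thus go together in part, and this fit does not separate them. Neocortex markers had a correlation of 0.43 with Htr5a over the libraries, and of 0.85 after group means were taken out. For dentate granule cell markers these were -0.16 and -0.69, and for CA2 and CA3 pyramidal cell markers -0.42 and -0.68. The part of these other lists in the Htr5a values was not tested.

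Htr2a encodes the 5-HT2A receptor, a Gq-coupled receptor of cortical pyramidal cells and of interneurons. Its libraries held 9.71, 12.1, 11.6 and 12.9 CPM in Control, 12.1, 14.3, 14.0 and 14.5 in Model, and 16.0, 11.5, 13.9 and 13.1 in Treatment. All groups overlapped. Model was 0.24 ± 0.11 above Control (95% interval 0.0035 to 0.48; adjusted p = 0.312) and Treatment 0.23 ± 0.11 above Control (-0.0041 to 0.47; adjusted p = 0.370). Treatment and Model differed by -0.01 ± 0.11, with an interval of -0.24 to 0.23.

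Htr2c encodes the 5-HT2C receptor, whose transcript is edited and spliced in neurons and which is abundant in choroid plexus epithelium. It is listed at chrX:145745509-145772324 for 1 transcript. The Control libraries held 65.9, 74.0, 70.2 and 40.1 CPM, the Model libraries 42.7, 49.9, 47.2 and 37.1, and the Treatment libraries 32.3, 57.9, 49.5 and 38.2. Control replicates 1 to 3 were above all 8 libraries of stressed mice, while Control replicate 4 lay within them. Model differed from Control by -0.50 ± 0.18 (95% interval -0.89 to -0.11; adjusted p = 0.195) and Treatment from Control by -0.49 ± 0.18 (-0.88 to -0.10; adjusted p = 0.243), the widest differences of any receptor, and neither passed. Treatment and Model differed by 0.01 ± 0.18 (-0.38 to 0.40). The biological coefficient of variation of Htr2c was 17.9%, where the trend over all genes gives 8.04% at its level.

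The choroid plexus markers moved with Htr2c. All 12 of 12 had a negative difference in Model against Control (median -1.23; 1, Sostdc1, fell) and all 12 in Treatment against Control (median -1.04, 0 passing). Ttr, which encodes the thyroxine carrier transthyretin and is the most abundant of them, differed by -1.38 ± 0.36 in Model against Control (adjusted p = 0.0820). Their summed level was 3133, 3722, 4074 and 1367 CPM in Control, 1140, 1230, 1597 and 1261 in Model, and 1013, 2505, 1843 and 953 in Treatment. The library with the low Control value of Htr2c, replicate 4, also had the low marker sum, and Treatment replicates 2 and 3 were the highest of their group in both. None of the 12 markers was at 0 in any group.

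Across the 12 libraries Htr2c and the mean log2 level of the markers had a Pearson correlation of 0.95 and a Spearman correlation of 0.91, and the Pearson correlation of deviations from group means was 0.94; these values describe libraries that share tissue, depth and scaling. With the marker mean as a covariate the difference of Htr2c from Control was 0.12 ± 0.11 in Model (adjusted p = 0.795) and 0.06 in Treatment (adjusted p = 0.912). The markers were themselves lower in both stressed groups, so this fit does not separate marker level from group. Without Control replicate 4 the difference of Model from Control was -0.66 ± 0.15 (adjusted p = 0.0644). Without a filter on low counts Htr2c passed in both comparisons with Control in edgeR, at -0.49 (adjusted p = 1.22e-07) and -0.48 (2.40e-07). The differences themselves hardly moved from the reported fit, at -0.50 (adjusted p = 0.195) and -0.49 (0.243). These calls are therefore not read as firmer differences, and the cause of the shift in adjusted p was not tested. Without Treatment replicates 2 and 3 Treatment differed from Model by -0.32 ± 0.19 (adjusted p = 0.499).

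**Figure D4:**
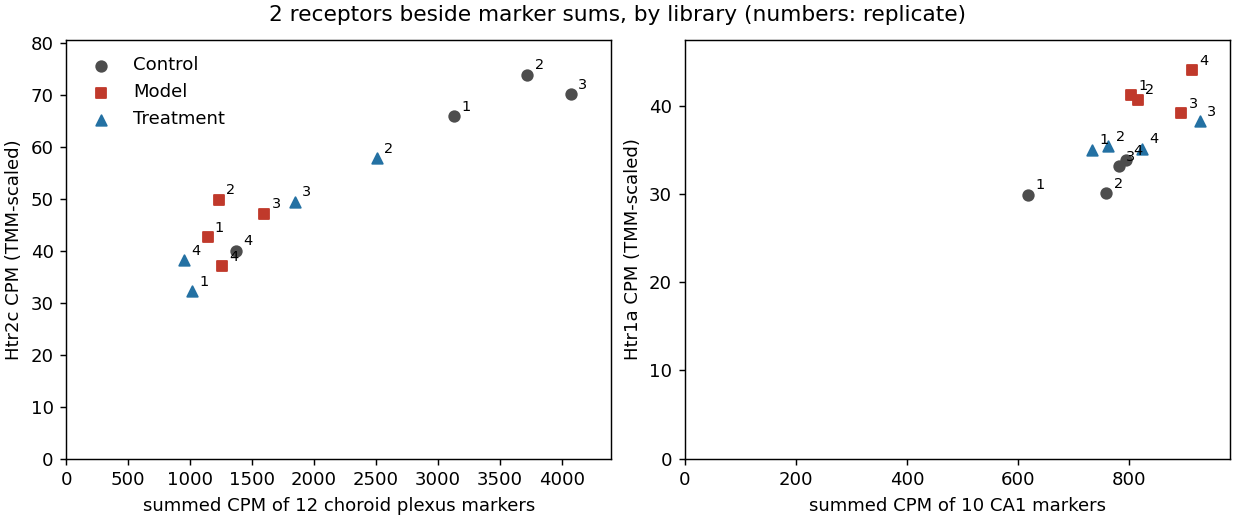
CPM of Htr2c against the summed CPM of 12 choroid plexus markers (left) and of Htr1a against that of 10 CA1 markers (right), 1 point per library, with circles for Control, squares for Model, triangles for Treatment and the replicate number beside each point. Over the 12 libraries Htr2c is higher where the choroid plexus sum is higher, with Control replicate 4 among the stressed libraries, but within Model the highest Htr2c (replicate 2) is not at the highest sum (replicate 3), while at sums near 800 CPM the Model libraries hold more Htr1a than the Control and Treatment libraries.

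Htr4 encodes a Gs-coupled receptor that is abundant in hippocampal granule cells. The Control libraries held 11.2, 10.6, 11.5 and 10.0 CPM, the Model libraries 8.36, 10.8, 11.7 and 11.5, and the Treatment libraries 9.33, 8.62, 8.33 and 6.68. Every Treatment library was below every Control library, and Model replicate 1 lay among the Treatment libraries. With Htr1a it was 1 of 2 receptors whose Treatment and Control libraries did not overlap, beside 7.24% of all genes. In Treatment against Model Htr1a alone was without overlap, beside 9.5% of all genes. Htr4 differed by -0.39 ± 0.12 in Treatment against Control (95% interval -0.65 to -0.13; adjusted p = 0.169), by -0.36 ± 0.12 in Treatment against Model (-0.62 to -0.10; adjusted p = 0.129) and by -0.03 ± 0.12 in Model against Control (-0.29 to 0.22). None passed.

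The separation of Htr4 held in counts and not in FPKM, where Treatment ran from 2.18 to 4.20 and Control from 2.86 to 4.26. In limma on log2(FPKM + 0.1) Treatment differed from Control by -0.24 and from Model by -0.10. Dentate granule cell markers were also low in Treatment: all 10 of 10 were negative against Model (median -0.32), with 5 that fell (Prox1, C1ql3, Calb1, Trpc6 and Sema5a). Against Control all 10 were negative too (median -0.21), with 0 passing. Their summed level was 736 to 875 CPM in Control, 828 to 993 in Model and 669 to 712 in Treatment. None of the 10 was at 0 in any group. The mean log2 level of the list had a Pearson correlation of 0.75 with Htr4 over the 12 libraries, and of 0.52 after group means were taken out. This was not particular to granule cells. Of the 10 markers of CA2 and CA3 pyramidal cells, 9 were negative against Model (median -0.20), with 1 that fell and 1 that rose. Against Control 8 of the 10 were negative (median -0.15, 0 passing). Their mean log2 level had a correlation of 0.75 with Htr4, and of 0.53 after group means were taken out. Oligodendrocyte markers had 0.39 with Htr4 over the libraries and 0.67 after group means were taken out, and astrocyte markers 0.45 and 0.58. For endothelial cell and pericyte markers these were -0.72 and -0.22, and for other interneurons -0.64 and -0.40. The part of these lists in the Htr4 values was not tested.

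Htr6 encodes a Gs-coupled receptor of neuronal primary cilia. Its libraries held 3.35, 4.20, 4.25 and 5.03 CPM in Control, 5.29, 5.07, 4.71 and 4.63 in Model, and 4.87, 4.51, 5.76 and 5.95 in Treatment. Control overlapped the other groups through its replicate 4, and its other 3 libraries were below them. The differences were 0.22 ± 0.15 in Model against Control (95% interval -0.08 to 0.53; adjusted p = 0.496), 0.32 ± 0.14 in Treatment against Control (0.02 to 0.63; adjusted p = 0.337) and 0.10 ± 0.14 in Treatment against Model (-0.20 to 0.41; adjusted p = 0.775). Neocortex markers were high in Treatment: all 8 of 8 in the table were positive against Control (median 0.43, 0 passing) and against Model (median 0.48; 2, Cux2 and Lamp5, rose), with summed levels of 322 to 428 CPM in Control, 330 to 405 in Model and 402 to 553 in Treatment. Over the 12 libraries their mean log2 level had a Pearson correlation of 0.26 with Htr6 and of 0.16 with Htr2a. After group means were taken out these were -0.06 and 0.05. Other receptors were closer to this list: Htr5a had 0.43 over the libraries and 0.85 after group means were taken out. Htr7 had 0.44 and 0.53, and Htr4 had -0.71 and -0.37. For Htr1a, Htr1b, Htr2c and Htr3a the values ran from -0.42 to -0.14 and from -0.48 to -0.25. Other lists were closer to Htr6. CA1 markers had 0.71 over the libraries and 0.68 after group means were taken out. General neuron markers had 0.66 and 0.65, and other interneuron markers 0.72 and 0.49. Choroid plexus markers had -0.71 and -0.50, and oligodendrocyte markers -0.64 and -0.65. Htr2a had -0.69 and -0.46 with choroid plexus markers, and 0.57 and 0.38 with general neuron markers. The part of the neocortex markers in the receptor values was not tested.

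Htr7, the third Gs-coupled member, held 10.0, 10.2, 6.58 and 7.85 CPM in Control, 9.47, 9.70, 7.60 and 9.35 in Model, and 7.74, 10.6, 8.28 and 10.7 in Treatment. The group means, 8.68 ± 1.77, 9.03 ± 0.97 and 9.35 ± 1.56 CPM (SD, n = 4), lay within 1 SD of each other. The differences were 0.05 ± 0.15 in Model against Control (95% interval -0.27 to 0.37), 0.05 ± 0.15 in Treatment against Model (-0.27 to 0.37) and 0.10 ± 0.15 in Treatment against Control (-0.22 to 0.42).

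Htr3a encodes the subunit needed for every serotonin-gated channel, and marks interneurons born in the caudal ganglionic eminence. It held 4.76, 6.80, 6.64 and 5.68 CPM in Control, 6.32, 7.00, 7.97 and 6.78 in Model, and 4.26, 4.87, 7.07 and 8.79 in Treatment. The Treatment libraries spanned both other groups. Differences were 0.23 ± 0.19 in Model against Control (95% interval -0.18 to 0.64; adjusted p = 0.619), -0.16 ± 0.19 in Treatment against Model (-0.57 to 0.25) and 0.07 ± 0.19 in Treatment against Control (-0.34 to 0.48). Its biological coefficient of variation, 18.4%, was the highest of the 9 tested receptors. The 12 interneuron markers of that origin had a median difference of 0.05 in Model against Control with 0 passing. Their mean had a Pearson correlation of 0.40 with Htr3a, and of 0.34 after group means were taken out. Htr3a was closer to general neuron markers (0.69 and 0.66) and to CA1 markers (0.68 and 0.67).

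Of 4 further receptor genes of the family in the table, Htr5b and Htr1f were tested. Htr5b, which lost its function in humans but encodes a receptor in mice, had 1.76 to 4.44 FPKM in a library, with a mean between those of Htr4 and Htr5a, and differed by 0.39 ± 0.24 in Model against Control (adjusted p = 0.474). Htr1f had a mean of 0.652 FPKM and differed by -0.04 ± 0.29 (adjusted p = 0.967). Htr2b had a mean of 0.0577 FPKM, and Htr3b was read once in all 12 libraries.

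Genes that mark serotonin neurons were read at low counts, though not all genes of serotonin handling were. Slc6a4, which encodes the serotonin transporter, had 0 to 3 counts in a library and Fev, a transcription factor of these neurons, 0 to 2. Tph2, which encodes the neuronal enzyme of serotonin synthesis, had 13 to 36 counts and passed the filter. Slc18a2 and Ddc, which encode the vesicular monoamine transporter and the decarboxylase that other monoamine cells also use, had 117 to 224 and 87 to 185 counts; they were named after their values were seen. The 6 raphe markers summed to 2.10 to 2.67 CPM in Control, 2.00 to 2.40 in Model and 1.79 to 2.33 in Treatment.

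Of 15 genes of serotonin synthesis, transport and breakdown, 14 were tested and 0 passed in each of the 3 comparisons. In Model against Control 8 were positive and 6 negative, with a median of 0.04. The highest of the list by FPKM were Qdpr, which recycles the cofactor of serotonin synthesis (mean 226 FPKM; -0.19 ± 0.08 in Model against Control, adjusted p = 0.276), and the aldehyde dehydrogenases Aldh2 (59.2 FPKM; -0.13 ± 0.08, adjusted p = 0.438) and Aldh1a1 (38.6 FPKM; -0.14 ± 0.10, adjusted p = 0.568).

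All 32 listed G proteins, effectors and channels of the receptors were tested, and 0 passed in each comparison. In Model against Control 24 were positive and 8 negative, with a median of 0.07. The highest were the Gs subunit gene Gnas (mean 782 FPKM; 0.02 ± 0.07, adjusted p = 0.909), the Go subunit gene Gnao1 (260 FPKM; 0.11 ± 0.05, adjusted p = 0.289) and the beta subunit gene Gnb1 (198 FPKM; 0.08 ± 0.06, adjusted p = 0.569). The inwardly rectifying channel genes Kcnj3, Kcnj6 and Kcnj9, named after their values were seen, differed by 0.07 ± 0.08, 0.17 ± 0.14 and -0.05 ± 0.08.

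Of 30 partners, editing enzymes and regulators of desensitisation, 29 were tested and 0 passed in each comparison. In Model against Control 22 were positive and 7 negative, with a median of 0.05. The highest were the 14-3-3 gene Ywhae (mean 507 FPKM; 0.08 ± 0.06, adjusted p = 0.618), Gpm6a (460 FPKM; 0.10 ± 0.07, adjusted p = 0.534) and the postsynaptic scaffold gene Dlg4 (273 FPKM; 0.02 ± 0.06, adjusted p = 0.917). Named after its values were seen, Mpdz, whose multi-PDZ protein binds the 5-HT2C receptor, held 76.5 ± 3.63 CPM in Control, 92.6 ± 4.95 in Model and 78.0 ± 5.75 in Treatment (SD, n = 4). It came near the threshold in edgeR in Model against Control (0.27 ± 0.06, adjusted p = 0.0557) and in Treatment against Model (-0.25 ± 0.06, adjusted p = 0.0573). The libraries overlapped in neither, as was so for 11.4% and 9.5% of all genes.

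The 9 tested receptors did not vary as 1 block. Over the 36 pairs, Pearson correlations of log2 CPM across the 12 libraries ran from -0.73 for Htr2a with Htr2c to 0.64 for Htr2a with Htr6. For these pairs they were -0.56 and 0.43 after group means were taken out. With the choroid plexus markers Htr2a had -0.69 and Htr2c 0.95 over the libraries. For each receptor the 3 genes of most similar profile were taken among 13684 tested genes with a mean of at least 1 CPM, as a description of libraries that share groups and scaling. Htr1a was nearest to Nfil3, a bZIP repressor gene, St13, a cochaperone gene, and Hsph1, which encodes an Hsp110 chaperone (each 0.94, and 0.83, 0.70 and 0.70 after group means were taken out). Htr2c was nearest to Lbp (0.98), Col8a1 (0.97) and Drc7 (0.96), at 0.97, 0.95 and 0.96 without group means. Htr6 was nearest to Fezf2, a transcription factor of deep cortical layers (0.94), Atp6v1g2 (0.92) and Pgap3 (0.92).

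Htr3a was nearest to Ankmy2 (0.95), Lamtor5 (0.91) and Hspa2 (0.90), and Htr4 to Zfp715 (0.92), Cog5 (0.90) and Ahcyl2 (0.90). Htr5a was nearest to Rgs17 (0.89), Ppp2r1b (0.87) and Pabir2 (0.87), and Htr2a to Alyref2 (0.87) and Vxn (0.87). Htr1b was nearest to Cldn5, a tight junction gene of endothelial cells (0.86), Ccm2 (0.85) and Irf3 (0.85), and Htr7 to Tmem266 (0.86), Tor1aip1 (0.84) and Dlc1 (0.84). No gene was named for more than 1 receptor.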

How the data were processed

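The submitters' processing notes name Salmon 1.10.1, STAR 2.7.10a, FastQC 0.12.1, Trim Galore 0.6.7 and cutadapt 3.4, with the build GRCm39; roles and annotation are not given in the sources used here. For each gene the deposited table gives an unscaled estimated count in every library (28.8% of nonzero values are not whole within 1e-06) and deposited FPKM values. A symbol is missing for 21883 of 78298 genes; RIN was above 7.0 per the labels.

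Estimated counts were rounded and fitted in edgeR 4.0.16 (R 4.3.3): filterByExpr, TMM, and a quasi-likelihood model of all 12 libraries with 1 mean per group. For scores and correlations, CPM were put on a log2 scale with a prior count of 2. The members, the 4 pathway lists and the 14 marker lists were chosen with earlier results of these data known. Named genes are all members, the 3 highest by FPKM of each pathway list, any member of those lists that passes, and the 3 genes nearest to each receptor; clone names were skipped, and 1 of the nearest genes is not reported here. The fit was tested on simulated data. Alternatives used DESeq2 1.42.0, limma 3.58.1, RLE scaling, other filters, a replicate block, fewer libraries and marker scores as covariates. No 2 libraries of a group agreed within sampling noise. Intervals on counts cover counting error only. Other tools were data.table (version 1.17.8), Python 3.11.15 and matplotlib 3.10.9. Promoter sequence came from RefSeq on GRCm38.p6, in which 8 of the 10 receptors had an entry, and exon models from GENCODE vM21. Reads were not used, so editing and splicing of Htr2c were not analysed here.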

Additional observations from a re-analysis of the deposited data

Results flagged for a closer look

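Among 30 sets of 4 libraries examined, 1 library stood apart from the rest of its group in 2; chance gives about 1 in 20. Htr1a was highest in Treatment replicate 3, at 38.3 CPM, with the other 3 Treatment libraries at 35.0 to 35.4 CPM. Htr7 was lowest in Model replicate 3, at 7.60 CPM, with the other 3 Model libraries at 9.35 to 9.70 CPM.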

How the results depend on the processing

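The number of genes that passed in Model against Control, 147 as reported, was 783 without a filter, 692 in DESeq2, 452 in a fit of those 8 libraries, 284 without Treatment replicates 2 and 3, 228 with a replicate block, 3 and 10 with the choroid plexus and CA1 scores as covariates, 5 in limma with either pseudocount (0.1 or 1), and 8 to 273 without 1 replicate. In Treatment against Model (350) it was 1099, 1090, 137 and 132 in DESeq2, without a filter, with 8 libraries and without Treatment replicates 2 and 3, 114 and 111 in limma, and 0 to 459 without 1 replicate. In Treatment against Control (19) it was 12 with RLE scaling, 440 in DESeq2, 748 without a filter, 2 with 8 libraries, 118 with the replicate block, 130 without Treatment replicates 2 and 3, 0 with the choroid plexus score, 9 in limma with a pseudocount of 1, and 0 to 73 without 1 replicate. In the smaller fits fewer samples entered; the cause of the other shifts was not tested.

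The number of receptors that passed in Model against Control, 1 as reported, was 3 without a filter (Htr1a, Htr2c and Htr5a), 0 with either score and in limma, and 0 or 1 without 1 replicate. In Treatment against Control it was 1 without a filter (Htr2c), and 0 in all others. In Treatment against Model it was 0 in all alternatives run. Same-numbered libraries did not pair (correlations of deviations from -0.04 to 0.11, 4 of 12 nearest to their own number), and the replicate block changed no call of a receptor; with it Htr1a differed by 0.38 and Htr2c by -0.48 (adjusted p = 0.0676) in Model against Control.

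Receptor differences reversed 43 times, none of them passing (largest 0.32 in size, smallest adjusted p 0.499). With the choroid plexus score these were Htr2c (0.12) and Htr4 (0.092) in Model against Control, Htr2c in Treatment against Model (-0.058) and against Control (0.060). With the CA1 score they were Htr3a (-0.085) and Htr4 (0.0013) in Model against Control, Htr1b (0.052), Htr2a (0.027), Htr2c (-0.0030) and Htr7 (-0.0033) in Treatment against Model, and Htr3a (-0.14) in Treatment against Control. In limma they were Htr7 in Model against Control (-0.00071 and -0.0045) and Htr1b (0.053 and 0.041) and Htr2c (-0.0060 and -0.0031) in Treatment against Model. With the replicate block Htr2c in Treatment against Model was -0.0074. Without Treatment replicates 2 and 3 Htr2a (0.085), Htr2c (-0.32) and Htr5a (0.072) reversed against Model and Htr1b (-0.034) against Control. Without 1 replicate, signs differed within -0.076 to 0.071 for Htr4 and -0.047 to 0.14 for Htr7 in Model against Control, -0.19 to 0.0999 for Htr1b, -0.093 to 0.067 for Htr2a, -0.14 to 0.13 for Htr2c and -0.020 to 0.13 for Htr7 in Treatment against Model, and -0.13 to 0.22 for Htr3a in Treatment against Control. Receptor levels in FPKM moved by less than the spread between libraries in each alternative. No scaling moved the median of all genes by over 0.03.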

Other observations

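Tph1, which encodes the enzyme of serotonin synthesis outside neurons and in the pineal gland, had 206 counts (10.4 CPM) in Treatment replicate 2 and 2 to 43 counts in the other 11 libraries; it was named after its values were seen. Pde4a, which encodes a phosphodiesterase that degrades cyclic AMP and was likewise named afterwards, had no overlap of libraries between any of the groups: 111 ± 2.98 CPM in Control, 120 ± 1.93 in Model and 130 ± 3.91 in Treatment (SD, n = 4). Libraries did not overlap in 11.4% of all genes for Model against Control, 9.5% for Treatment against Model and 7.24% for Treatment against Control. The share of genes with this order of the 3 groups was not counted. Treatment differed from Control by 0.22 ± 0.05 (edgeR, adjusted p = 0.0822), which did not pass. Grk2, a kinase gene of receptor desensitisation, was also named after its values were seen. It held 219 ± 9.90 CPM in Model and 252 ± 6.54 in Treatment, a difference of 0.20 ± 0.05 (edgeR, adjusted p = 0.0589), which did not pass.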
